A study of Rattus norvegicus with 8 samples.

Results

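The 7 genes described here, Mt-nd1, Mt-nd2, Mt-nd3, Mt-nd4l, Mt-nd4, Mt-nd5 and Mt-nd6, are the subunits of respiratory complex I that are encoded in the mitochondrial genome. They were chosen by their symbols and are 7 of the 13 genes whose symbol starts with Mt- and of the 32754 genes in the files. Their ratio to the other Mt- genes within one animal, before and after cryopreservation and between cell lineages, was part of the choice, so these ratios are given as descriptions with no p-value. The contrasts of the ratios with diet and with free RNA are tested. Immune cells were enriched from the livers of 4 male Han Wistar rats by filtration, lysis of erythrocytes and density centrifugation. Animals NC1 and NC2 (negative controls) had received the choline-sufficient, l-amino acid-defined diet (CSAA), and PC1 and PC2 (positive controls) the choline-deficient one (CDAA). Each animal gave 1 library of fresh cells without preservation and 1 library of cells cryopreserved in DMSO and stored for 3 weeks, on the Chromium 3′ system. The age of the animals is not given in the sources used here, and because preserved cells were processed only after storage, an effect of the processing day cannot be told apart from preservation.

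Complex I (NADH:ubiquinone oxidoreductase) takes electrons from NADH, passes them to ubiquinone and pumps protons across the inner mitochondrial membrane. The subunits encoded in the mitochondrial genome form the core of its membrane arm, and the other subunits, as well as the assembly factors, are encoded in the nucleus. The mitochondrial genome is transcribed from both strands as long precursors, which are cut into mature RNAs. Most, but not all, of the messenger RNAs are polyadenylated, and whether the members were captured equally well was not examined here. Mt-nd6 is the only one of the members on the light strand, and Mt-nd4l and Mt-nd4 overlap in a shared transcript, so that the assignment of reads between those genes is uncertain.

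A cell was a barcode with at least 500 unique molecular identifiers (UMIs), each of which stands for a captured transcript. There were 34053 cells, 3673 to 4771 per library, with median depths of 3339 to 4309 UMIs. Libraries held 18338700 to 26471843 UMIs in total, and 5.21% to 8.22% of the UMIs in cells came from the Mt- genes. Pairs of libraries shared 13 to 36 cell barcodes. Markers of T, B, NK, dendritic and myeloid cells were present in every library, so the libraries held immune cells as labelled. The summed level of 5 hepatocyte markers was 1.44 to 19.3 CPM, the UMI count scaled to a common library total. It was 57.1 to 169 CPM for 4 endothelial, 0 to 80.7 CPM for 2 erythroid and 15.4 to 38.7 CPM for 4 platelet markers. Other cells or their RNA were thus present as well. The 2 libraries of animal NC2 stood apart from the other 6 in the ratios of the Mt- genes. Values of NC2 are therefore given apart, and some results are also given without NC2.

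Of all Mt- UMIs in cells, the members held 34.2% in the fresh and 33.5% in the DMSO library of NC2, or 570433 of 1667502 and 435711 of 1300471 UMIs. In fresh libraries they held 18.1% in NC1, 18.9% in PC1 and 19.2% in PC2. In DMSO libraries the shares were 17.8% in NC1, 18.1% in PC1 and 17.3% in PC2. NC2 thus lay 15.5 percentage points above the mean of the other 3 animals when fresh and 15.8 points above it after preservation, whereas the other 6 libraries lay between 17.3% and 19.2%. The widest 95% Wilson interval of these shares, that of preserved NC1, ran from 17.7% to 17.9%, and such intervals cover counting error only. NC2 is a single animal, so this difference is given with no p-value. The counts rest on reads assigned by the authors to one reference genome, and sequence differences of an animal from that reference were not examined here. Within animals, the DMSO share was lower than the fresh one in 4 of 4, with differences of -0.315 (NC1), -0.705 (NC2), -0.849 (PC1) and -1.92 (PC2) percentage points (mean -0.948 ± 0.687 percentage points, SD, n = 4). The difference between the libraries of one animal was therefore smaller in each case than the 15.5 and 15.8 points between NC2 and the other animals. This did not hold among the other 3 animals, whose shares ran from 18.1% to 19.2% when fresh and from 17.3% to 18.1% after preservation. The difference of PC2 was larger than either of these ranges, and that of PC1 larger than the second only. Those of NC1 and NC2 were smaller than both.

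**Figure D1:**
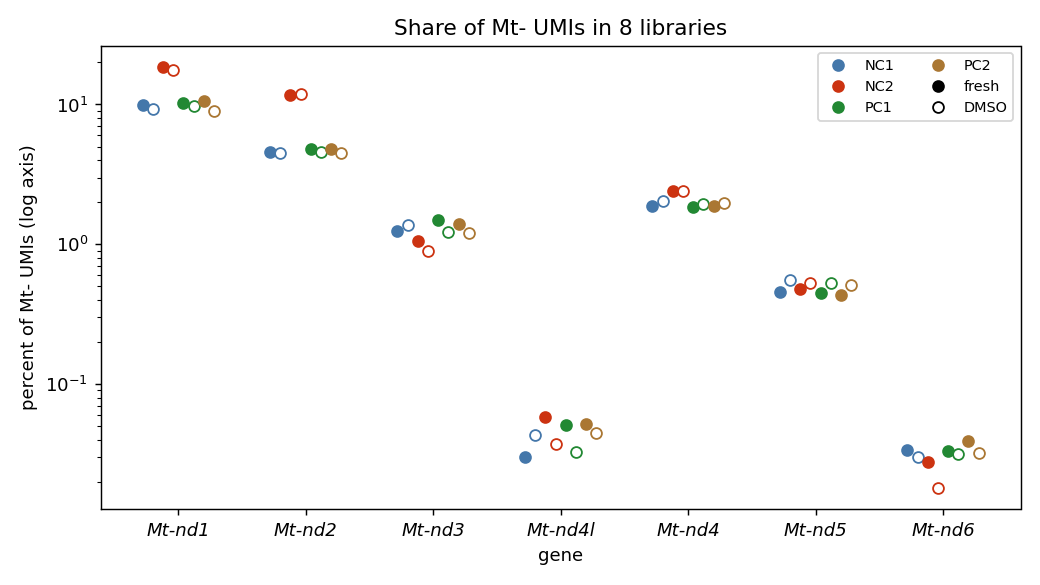
Percent of Mt- UMIs (log axis) held by each of the 7 genes in 8 libraries, with fresh libraries as filled and DMSO libraries as open circles and 1 colour per animal. Both NC2 libraries lie above the other 6 for Mt-nd1 (18.5% and 17.7% against at most 10.6%), Mt-nd2 (11.7% and 11.9% against at most 4.83%) and Mt-nd4 (2.40% and 2.41% against at most 2.03%), and below them for Mt-nd3 and Mt-nd6.

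Mt-nd1 encodes a subunit at the junction of the membrane arm with the arm that takes up electrons, near the site where ubiquinone binds. It held 9.89% of the Mt- UMIs (NC1), 18.5% (NC2), 10.2% (PC1) and 10.6% (PC2) when fresh. After preservation it held 9.23% (NC1), 17.7% (NC2), 9.74% (PC1) and 9.03% (PC2). Preserved values were lower in each animal, and those of NC2 overlapped with no other library. On the scale of the log2 ratio to the other 12 Mt- genes, the difference between DMSO and fresh was -0.13 ± 0.08 (SD, n = 4 animals). By comparison, the ratio of NC2 was 2.0-fold that of the other animals in fresh and 2.09-fold in DMSO libraries.

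Mt-nd2, one of the antiporter-like proton pumping subunits, differed most between animals. It held 4.58% of the Mt- UMIs (NC1), 11.7% (NC2), 4.82% (PC1) and 4.83% (PC2) when fresh, and 4.52%, 11.9%, 4.59% and 4.47% after preservation. The difference in log2 ratio between DMSO and fresh was -0.04 ± 0.06 (SD, n = 4), with 3 animals lower and NC2 higher. The ratio of NC2 was 2.65-fold that of the other animals when fresh and 2.84-fold after preservation. UMIs of Mt-nd1 per UMI of Mt-nd2 numbered 2.02 to 2.19 in the 6 libraries of the other animals, and 1.59 and 1.49 in NC2.

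Mt-nd4, another antiporter-like subunit, followed in the same direction with a smaller difference. It held 1.86% to 1.87% of the Mt- UMIs in the fresh libraries of NC1, PC1 and PC2 and 2.40% in NC2. After preservation it held 2.03% in NC1, 1.93% in PC1, 1.96% in PC2 and 2.41% in NC2. The ratio of NC2 was 1.29-fold and 1.23-fold that of the other animals in fresh and DMSO libraries. The ratio in the DMSO library was above that in the fresh one in 4 of 4 animals, by 0.06 ± 0.05 on the log2 scale (SD, n = 4). NC2 had the smallest difference (0.0042). As a level in CPM, however, Mt-nd4 was lower after preservation in each animal. It stood at 1136, 1973, 1130 and 1311 CPM when fresh and at 1056, 1871, 1113 and 1034 CPM after preservation (NC1, NC2, PC1, PC2).

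Mt-nd5, the longest antiporter-like subunit, had a higher ratio after preservation in 4 of 4 animals. It held 0.454% of the Mt- UMIs (NC1), 0.481% (NC2), 0.447% (PC1) and 0.430% (PC2) when fresh, and 0.559%, 0.532%, 0.533% and 0.509% after preservation. Every DMSO library lay above every fresh library. The difference in log2 ratio was 0.24 ± 0.07 (SD, n = 4) and 0.27 without NC2. NC2 lay within 0.12 of the mean of the other animals in both states. As a level in CPM, Mt-nd5 was higher after preservation in NC1, NC2 and PC1 but lower in PC2 (302 CPM when fresh and 269 CPM after preservation).

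Mt-nd3 encodes a small subunit near the ubiquinone site. It held 1.24% of the Mt- UMIs (NC1), 1.05% (NC2), 1.49% (PC1) and 1.40% (PC2) when fresh, and 1.37%, 0.901%, 1.22% and 1.21% after preservation. Both NC2 libraries were below the other 6, at 0.763-fold and 0.710-fold of the other animals' ratio. In CPM, however, NC2 lay within the other animals, at 0.982-fold (864 against 755 to 983 CPM) when fresh and 1.02-fold (701 against 637 to 716 CPM) after preservation. The DMSO library was lower in NC2, PC1 and PC2 and higher in NC1, with a mean difference of -0.15 ± 0.20 (SD, n = 4) that was smaller than its spread.

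Mt-nd4l and Mt-nd6 were sparse, with 358 to 963 and 234 to 658 UMIs per library. Mt-nd4l, a small membrane subunit, held 0.0302% of the Mt- UMIs (NC1), 0.0578% (NC2), 0.0507% (PC1) and 0.0519% (PC2) when fresh. After preservation it held 0.0431%, 0.0373%, 0.0327% and 0.0445%, so NC1 was higher and the other animals were lower than when fresh (mean log2 difference -0.24 ± 0.54, SD, n = 4). Mt-nd6, a membrane subunit, held 0.0340% (NC1), 0.0278% (NC2), 0.0331% (PC1) and 0.0391% (PC2) when fresh and 0.0298%, 0.0180%, 0.0314% and 0.0324% after preservation. Its DMSO value was lower in 4 of 4 animals, by -0.29 ± 0.24 on the log2 scale (SD, n = 4), and by -0.18 without NC2. Both NC2 libraries were below the other 6 for Mt-nd6, at 0.788-fold and 0.578-fold of the other animals' ratio. The fresh one (0.0278%) was close to preserved NC1 (0.0298%). UMIs of Mt-nd5 per UMI of Mt-nd6, its neighbour on the other strand, were 11 to 17.3 in fresh and 15.7 to 29.6 in DMSO libraries, higher after preservation in 4 of 4 animals.

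**Figure D2:**
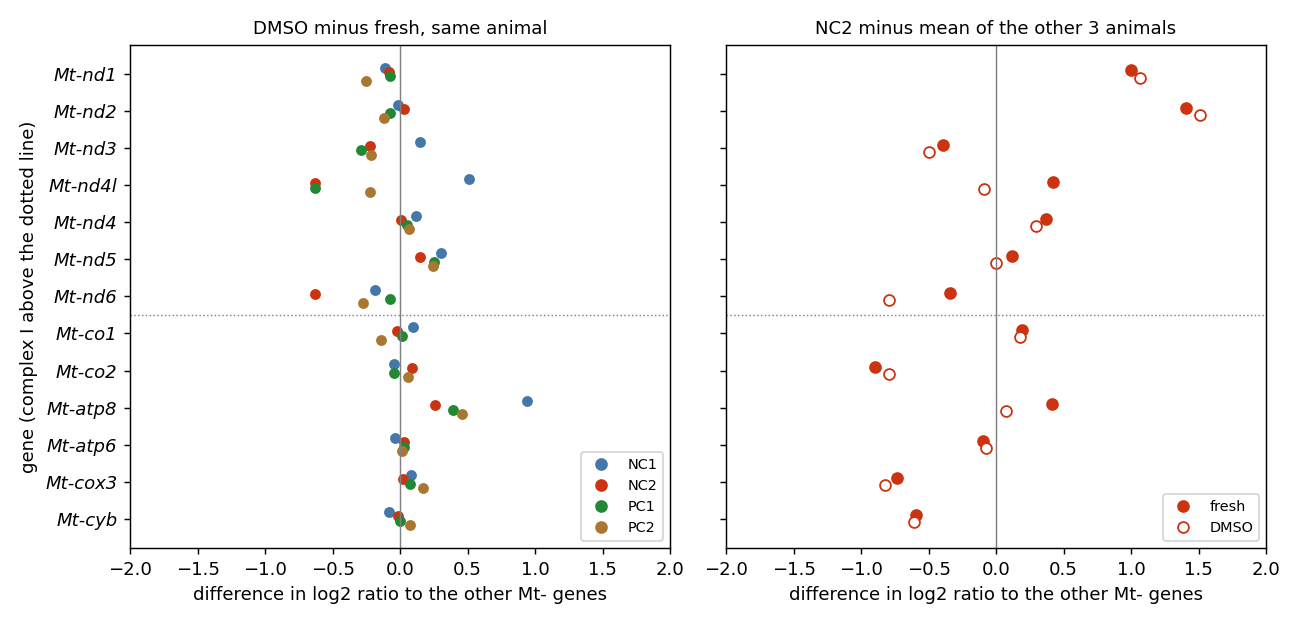
Differences in the log2 ratio of each Mt- gene to the other 12, with complex I genes above the dotted line. The left panel gives DMSO minus fresh for each animal, and the right panel gives NC2 minus the mean of the other 3 animals in fresh (filled) and DMSO (open) libraries, where Mt-nd2 reaches 1.41 and 1.51 and Mt-co2 -0.89 and -0.79.

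Of the 6 Mt- genes outside complex I, some also had another ratio in NC2, in both directions. The ratio of Mt-co2, a cytochrome c oxidase subunit, was 0.538-fold that of the other animals when fresh and 0.578-fold after preservation. For Mt-cox3 of the same complex the values were 0.601-fold and 0.565-fold, and for Mt-cyb, the cytochrome b of complex III, 0.661-fold and 0.655-fold. Mt-co1 was higher in NC2, at 1.14-fold and 1.13-fold. Mt-atp6 stood at 0.935-fold and 0.951-fold, and Mt-atp8 at 1.34-fold and 1.05-fold, the latter within the range of the other DMSO libraries. A share falls when another rises, and levels in CPM of all genes were therefore compared as well. Mt-nd1 stood at 15244 CPM in fresh NC2 and at 6014 to 7406 CPM in the other fresh libraries, and Mt-nd2 at 9580 against 2785 to 3388 CPM. In DMSO libraries, Mt-nd1 stood at 13786 against 4771 to 5625 CPM and Mt-nd2 at 9239 against 2357 to 2649 CPM. Together the 7 members stood at 2.35-fold and 2.71-fold of the other animals' level in NC2, whereas the sum of the other Mt- genes stood at 1.04-fold and 1.16-fold. That sum joins genes that went both ways. In CPM, Mt-co1 stood at 1.44-fold and 1.59-fold and Mt-atp6 at 1.22-fold and 1.38-fold, so that Mt-atp6 was lower as a ratio but higher as a level. Mt-co2 stood at 0.741-fold and 0.880-fold, Mt-cox3 at 0.838-fold and 0.890-fold, Mt-cyb at 0.880-fold and 0.971-fold (5111 against 4984 to 5417 CPM in DMSO libraries) and Mt-atp8 at 1.71-fold and 1.51-fold. Of the other members, Mt-nd4 stood at 1.65-fold and 1.75-fold, Mt-nd5 at 1.40-fold and 1.43-fold, Mt-nd4l at 1.66-fold and 1.34-fold and Mt-nd6 at 1.01-fold and 0.827-fold. In such sums, fewer cells of a type and less RNA per cell cannot be told apart.

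Genes with a mean of at least 10 CPM were used to see how common such differences were. In NC2, 14 of 6127 genes (0.228%) were at least 2-fold above the mean of the other animals in both states, and Mt-nd1 and Mt-nd2 were 2 of them. NC2 was above all other animals in both states for 501 genes (8.18%) and for 5 of the 7 members, the exceptions being Mt-nd3 and Mt-nd6. Mt-co1, Mt-atp6 and Mt-atp8 outside complex I were above as well. Above all others were 1193 genes in NC1, 359 in PC1 and 1408 in PC2, with no member in any of them. The number of genes at least 2-fold above the others was 37 for NC1, 16 for PC1 and 31 for PC2, with no member in any of them. At least 2-fold below the others were 92 genes in NC2, 45 in NC1, 24 in PC1 and 49 in PC2, again with no member. The sum of 36 genes listed as nuclear-encoded complex I subunits (37 rows of the files) stood at 0.924-fold and 0.925-fold of the other animals in NC2. Complex I assembly factors stood at 0.911-fold and 0.891-fold, and genes for the transcription, processing and stability of mitochondrial RNA at 0.921-fold and 0.956-fold. The makeup of the NC2 libraries also differed. The summed level of 9 T cell markers was higher in both NC2 libraries (1633 and 1589 CPM) than in the others (753 to 1411 CPM), and that of 7 monocyte markers was lower (1668 and 1447 against 1965 to 2774 CPM), as was that of 6 neutrophil markers (288 and 196 against 361 to 794 CPM). The higher share of the members was also measured within T-like and within monocyte-like cells.

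Cells were clustered without the Mt- genes and named from marker genes to see whether the ratios were shared by lineages. Classes with at least 50 cells in each library were B-like, T-like, NK/NKT-like, plasmacytoid and conventional dendritic-like, monocyte-like, Fcgr3a myeloid-like and cycling-like cells and the unnamed clusters 5, 7 and 8. Cluster 5 had a median of 1603 UMIs and 11.5% Mt- UMIs. Cluster 7 had 735 UMIs and 24.4% Mt- UMIs with 10 Mt- genes, 4 of them members, as its leading genes. Cluster 8 was led by Ly49 and Klra receptor genes. In it, 5 T cell markers (Cd3d, Cd3e, Cd3g, Lef1 and Lat) were also at least 2-fold higher than in the other cells. Kupffer-like, neutrophil-like and mast/basophil-like cells and the unnamed clusters 15, 17 and 18 had fewer than 50 cells in at least 1 library. All of these were left out. Mast/basophil-like cells numbered 0 in each DMSO library.

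The summed share of the members was above all other libraries in NC2 in 11 of 11 classes. Its mean over the 6 libraries without NC2 was lowest in monocyte-like (17.2% ± 0.596, SD) and conventional dendritic-like cells (17.4% ± 0.838), which differed by less than their spread, and highest in cluster 7 (20.0% ± 1.54). This order did not hold in each library. Conventional dendritic-like cells were lower than monocyte-like ones in NC1 (16.7% against 17.2% when fresh and 16.7% against 17.1% after preservation), and cluster 7 was below T-like cells in the DMSO libraries of NC1 (19.0% against 19.2%) and PC2 (17.8% against 19.1%). B-like cells held 19.0% ± 0.863, T-like cells 19.4% ± 0.514, NK/NKT-like cells 18.2% ± 0.802 and Fcgr3a myeloid-like cells 18.1% ± 0.706, so that the last pair differed by less than their spread. In NC2 the share was 31.9% and 30.9% in monocyte-like cells, 33.8% and 33.6% in B-like cells, and 35.1% and 35.3% in Fcgr3a myeloid-like cells, in fresh and DMSO libraries. Monocyte-like cells were lowest and Fcgr3a myeloid-like cells highest in both NC2 libraries, and the difference between NC2 and the highest other library was at least 12.0 percentage points in each class.

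**Figure D3:**
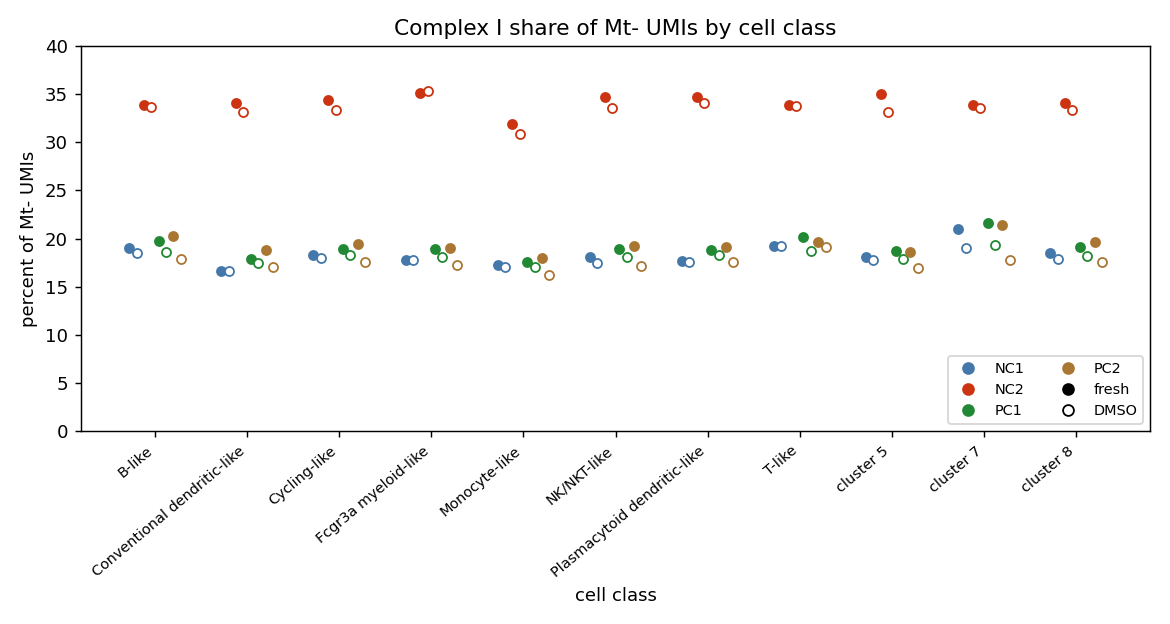
Complex I share of Mt- UMIs (percent) in 11 cell classes with at least 50 cells per library, with fresh libraries as filled and DMSO libraries as open circles. NC2 lies between 30.9% and 35.3% and the other animals between 16.2% and 21.6%.

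Within classes, Mt-nd1 and Mt-nd2 were higher in NC2 than in every other library in 11 of 11 classes, and Mt-nd4 in 10 of 11, the exception being cluster 7. For Mt-nd3, Mt-nd4l, Mt-nd5 and Mt-nd6 this held in 0 of 11 classes. The higher summed share of NC2 was thus not shared by all members. Mt-nd1 and Mt-nd2 were 309159 and 194293 of the 570433 UMIs of the members in fresh NC2. For Mt-nd1 the mean share over the 6 libraries without NC2 was 8.98% in monocyte-like and 11.1% in cluster 7 cells, and for Mt-nd2 it was 4.23% in monocyte-like and 5.06% in B-like cells. Mt-nd3 ranged from 1.17% in NK/NKT-like cells to 1.65% in cluster 7, and Mt-nd6 from 0.0203% in cluster 7 to 0.0412% in plasmacytoid dendritic-like cells. In CPM the summed members were 1.46-fold (cluster 7) to 2.71-fold (plasmacytoid dendritic-like cells) higher in NC2 when fresh. After preservation the values were 2.17-fold (cluster 7) to 3.31-fold (plasmacytoid dendritic-like cells).

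The differences with preservation were followed across classes for each member. Mt-nd1 had a lower log2 ratio after preservation in 4 of 4 animals in 11 of 11 classes, with class means from -0.25 to -0.09. Mt-nd5 had a higher one in 4 of 4 animals in 9 classes, with class means from 0.13 to 0.34. The summed share was lower in 4 of 4 animals in 9 classes, and its mean difference was largest in cluster 7 (-2.03 ± 1.36 percentage points, SD, n = 4) and smallest in T-like cells (-0.557 ± 0.656). The ratio of Mt-nd4 was higher in 4 of 4 animals in 4 of the 11 classes, with a lower mean in 2. That of Mt-nd6 was lower in 4 of 4 animals in 5 classes, with a higher mean in 2. Mt-nd2, Mt-nd3 and Mt-nd4l each had a direction common to all animals in 1 class.

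The share was also computed in single cells with at least 100 Mt- UMIs. Its median was 34.5% in fresh and 33.6% in preserved NC2 cells, and 17.1% to 19.0% in the other libraries. The central 95% of cells reached from 28.2% to 42.1% and from 27.0% to 41.3% in NC2. In the other libraries these limits were 11.4% to 14.0% at the lower and 24.2% to 25.3% at the upper end, and so did not overlap with those of NC2. The midpoint between both sets of libraries, chosen after their values were seen, was 26.3%. Between 28 and 64 cells per library lay on the side of the other set, which is 0.621% to 1.65% of the cells, and 0 to 2 of these per library had a high doublet score.

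**Figure D4:**
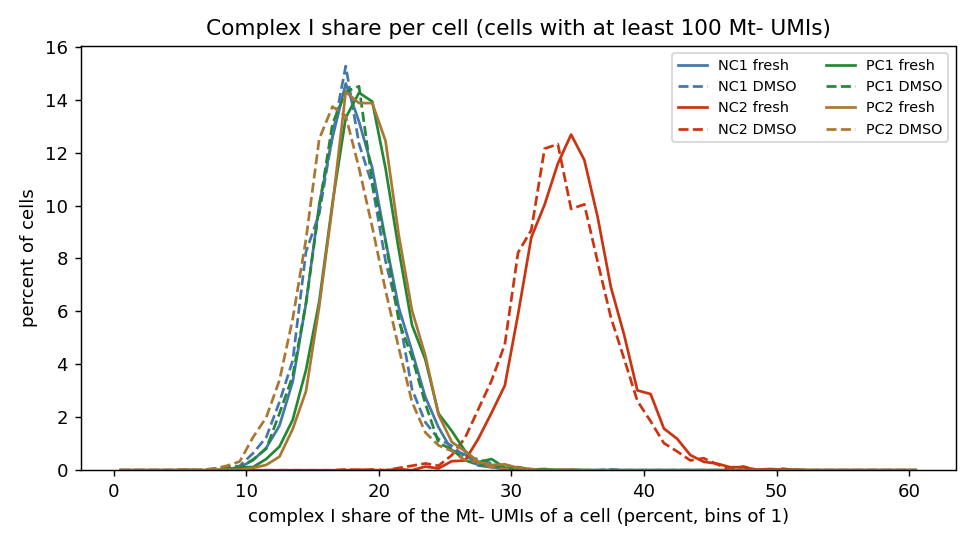
Distribution over cells of the complex I share of Mt- UMIs (percent, bins of 1) in cells with at least 100 Mt- UMIs, with solid lines for fresh and dashed lines for DMSO libraries. Cells of NC2 centre on medians of 34.5% and 33.6% and those of the other animals on 17.1% to 19.0%.

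The spread among cells was set against counting error as the mean squared deviation of a cell's count from the library's share, each divided by its binomial variance. This dispersion was 1.37 to 1.77 for the summed share, and 1 would be counting error alone. It was 1.32 to 1.56 for Mt-nd1 and 1.14 to 1.5 for Mt-nd2. For Mt-nd3, Mt-nd4l, Mt-nd4, Mt-nd5 and Mt-nd6 it was between 0.987 and 1.17. For these 5 genes the spread between cells of one library was thus close to counting error. Counting error dominates this measure when a cell holds few UMIs of a gene. Such values therefore do not show that these genes varied less between cells than Mt-nd1 and Mt-nd2. When each cell was taken at 100 Mt- UMIs, which left out 57 to 535 cells per library, 98.8% to 100% of the cells were expected to hold a UMI of Mt-nd1 and of Mt-nd2. The share for Mt-nd4 was 90.1% and 90.5% in NC2 and 84.0% to 85.8% elsewhere, and that for Mt-nd3 was 64.8% and 59.4% in NC2 and 68.6% to 77.3% elsewhere. It was 34.9% to 42.8% for Mt-nd5, 3.03% to 5.62% for Mt-nd4l and 1.79% to 4.05% for Mt-nd6. Without the fixed depth, 85.6% to 95.6% of the cells held a UMI of Mt-nd3, 92.4% to 98.9% of Mt-nd4, 63.5% to 77.9% of Mt-nd5, 7.67% to 18.7% of Mt-nd4l and 6.01% to 13.1% of Mt-nd6.

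The composition also varied with the Mt- percentage of a cell, a measure often read as a sign of cell damage. In cells with at least 20% Mt- UMIs, Mt-nd3 held 1.55% of the Mt- UMIs on average over libraries, compared with 1.08% in cells with 3% to 5%. This difference was positive in 8 of 8 libraries (0.472 ± 0.0971 percentage points, SD, n = 8 libraries of 4 animals). Mt-nd6 was lower in the cells with at least 20% in 8 of 8 libraries (0.0195% against 0.0337%). These shares of Mt-nd6 rest on few UMIs in some libraries and are imprecise there. In fresh NC2, for example, only 23 cells with 6101 Mt- UMIs had 3% to 5%. For Mt-nd2, Mt-nd4 and Mt-nd5 the difference was positive in 4 and negative in 4 libraries. The summed share was higher by 1.21 ± 1.04 percentage points in these cells, in 7 of 8 libraries, and by 1.57 points without NC2. Single libraries ranged from -0.0981 (preserved NC2) to 2.82 points (fresh NC1). By depth, the summed share was higher in cells with 500 to 1000 UMIs than in those with at least 8000 in 8 of 8 libraries, by 1.37 ± 0.959 percentage points. This difference was larger in the fresh than in the DMSO library of each animal. In the order NC1, NC2, PC1, PC2, the shares were 19.3%, 35.9%, 21.2% and 21.2% against 17.6%, 33.6%, 18.6% and 19.0% when fresh. After preservation they were 18.3%, 33.7%, 18.6% and 17.5% against 17.5%, 33.1%, 18.0% and 17.3%. Mt-nd2 (6.76% against 6.30%) and Mt-nd3 (1.56% against 1.16%) were also higher in the shallow cells of 8 of 8 libraries. In the opposite direction, Mt-nd4 held 1.88% in cells with 500 to 1000 UMIs and 2.09% in those with at least 8000, and was lower in the shallow cells of 8 of 8 libraries. In cells with at least 20% Mt- UMIs the summed share was 33.4% to 34.1% in NC2 and 17.5% to 21.0% in the other libraries. In cells with 500 to 1000 UMIs it was 33.7% to 35.9% in NC2 and 17.5% to 21.2% elsewhere.

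Free RNA was measured in barcodes with 10 to 100 UMIs, and its composition was compared with that of the cells of the same library. Members held 32.3% and 31.9% of the Mt- UMIs of free RNA in NC2, 19.6% to 21.9% in the other fresh libraries and 16.5% to 16.9% in the other DMSO libraries. In the exact permutation test of signs over 4 animals (two-sided), the smallest possible p is 0.13, so no comparison could pass 0.05. Fresh and DMSO values were averaged for each animal. The log2 ratio in cells then exceeded that in free RNA for Mt-nd3, Mt-nd4l, Mt-nd5 and Mt-nd6 in 4 of 4 animals. The differences were 0.41 ± 0.21, 0.80 ± 0.45, 0.17 ± 0.10 and 0.48 ± 0.21 (SD, n = 4, exact permutation p = 0.13 each, 0.22 adjusted over the 7 genes). Single libraries did not all go this way. For Mt-nd1 the difference was -0.08 ± 0.11, for Mt-nd2 -0.02 ± 0.08 and for Mt-nd4 0.07 ± 0.07 (exact permutation p = 0.25, 0.88 and 0.25). Leaving out PC1 or PC2 turned the difference of Mt-nd2 to 0.01 and 0.0043.

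The value of Mt-nd1 joins -0.23, 0.13, -0.29 and -0.29 in fresh libraries of NC1, NC2, PC1 and PC2 with values between -0.01 and 0.05 in DMSO libraries. For Mt-nd3 and Mt-nd4l the difference lay mainly in the DMSO libraries. In the order NC1, NC2, PC1, PC2, it was 0.94, 0.72, 1.04 and 0.46 for Mt-nd3 after preservation, and 0.14, 0.04, 0.16 and -0.20 when fresh. For Mt-nd4l it was 0.92, 1.54, 2.27 and 0.84 after preservation and 0.23, 0.47, 0.37 and -0.22 when fresh. The free RNA of DMSO libraries held 5 to 28 UMIs of Mt-nd4l, and these values are therefore imprecise. The values of preserved libraries were above those of fresh ones in each animal for both genes. In the same order, Mt-nd5 had 0.12, -0.13, 0.36 and 0.02 when fresh and 0.21, 0.22, 0.23 and 0.31 after preservation. Mt-nd6 had 0.69, 0.06, 0.56 and 0.74 when fresh and -0.21, 1.43, 0.46 and 0.11 after preservation. The free RNA of preserved NC2 held 5 UMIs of Mt-nd6.

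**Figure D5:**
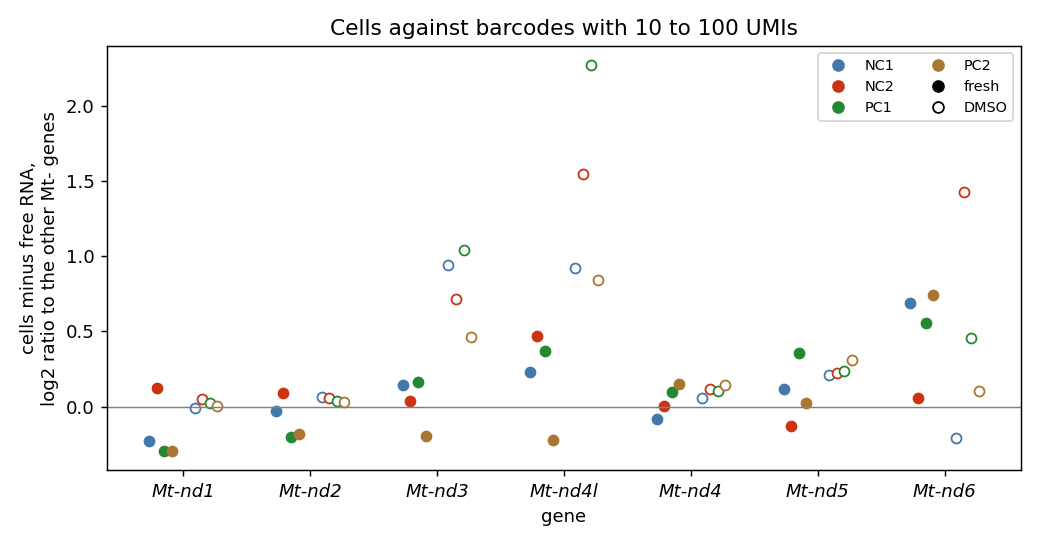
Log2 ratio of each member to the other Mt- genes in cells minus that in barcodes with 10 to 100 UMIs of the same library, with fresh libraries as filled and DMSO libraries as open circles. All 4 DMSO values of Mt-nd3 (0.46 to 1.04) and Mt-nd4l (0.84 to 2.27) lie above the fresh values of the same animal.

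Summed counts per library were also compared across all genes with the quasi-likelihood test of edgeR, with the animal as a block and Benjamini-Hochberg adjustment. Between DMSO and fresh libraries 1044 of 11505 genes (9.07%) passed an adjusted p of 0.05. This contrast was part of the choice of the genes, so nothing is read from the members' calls. Of the 7 members, all of which were tested, 1 was called, and 6 of the 7 had a negative log2 change. Mt-nd6 had a log2 change of -0.43 ± 0.11 (SE, edgeR adjusted p = 0.034), from 20.7, 22.9, 20.1 and 27.4 CPM in the fresh to 15.5, 14.0, 18.1 and 17.1 CPM in the DMSO libraries of NC1, NC2, PC1 and PC2. The call was lost without NC2 (-0.37, adjusted p = 0.16), without PC2 (-0.35, 0.12) and without the block (-0.44, 0.27). Other fits called more members. DESeq2 called 798 of 11505 genes, with Mt-nd1, Mt-nd3 and Mt-nd6 among them (adjusted p = 0.0497, 0.022 and 0.024). The edgeR fit without a filter on low counts called 1533 of 18098 genes, with these members and Mt-nd4l among them (adjusted p of 0.0051 to 0.025). The edgeR fit without NC1 called 1318 of 11550 genes, with Mt-nd3, Mt-nd4l and Mt-nd6 among them (adjusted p = 0.0066, 0.00027 and 0.027). The log2 changes were -0.26 for Mt-nd1, -0.19 for Mt-nd2, -0.29 for Mt-nd3, -0.41 for Mt-nd4l, -0.08 for Mt-nd4 and 0.09 for Mt-nd5 (adjusted p of 0.060 to 0.45). The median of the members was -0.26 and that of all genes tested was -0.0022, beside -0.13 for the other Mt- genes.

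The nuclear-encoded partners differed little with preservation. Of 36 genes listed as nuclear complex I subunits, 2 rose and 0 fell, and their median log2 change was 0.03. Ndufv1, which carries the NADH binding site, rose by 0.21 ± 0.05 (SE, edgeR adjusted p = 0.041), and Ndufa12, an accessory subunit, by 0.18 ± 0.05 (0.044). Of 14 complex I assembly factors 0 were called (median 0.10). Of 27 genes listed for the transcription, processing and stability of mitochondrial RNA 1 was called (median 0.07), namely Polg2. It encodes the accessory subunit of the mitochondrial DNA polymerase and so is not itself a gene of RNA transcription or processing. Polg2 rose by 0.29 ± 0.07 (SE, edgeR adjusted p = 0.040). In fresh and DMSO cells, the nuclear subunits summed to 5717 and 5719 CPM (NC1), 5629 and 5594 (NC2), 6180 and 6050 (PC1), and 6380 and 6368 (PC2).

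Whether the members differed with the diet was also tested with edgeR, within fresh and within DMSO libraries and without a block. In fresh libraries 139 of 11772 genes (1.18%) differed between PC and NC animals, and in DMSO libraries 73 of 11364 genes (0.642%). None of the 7 members was called in either (0 and 0), nor were any of the 36 nuclear subunits, 14 assembly factors or 27 genes of mitochondrial RNA. The largest estimates were those of Mt-nd2, with log2 changes of -0.96 ± 0.53 in fresh and -1.27 ± 0.59 in DMSO libraries (SE, edgeR adjusted p = 0.37 and 0.39). These estimates rest on NC2. Without NC2, Mt-nd2 stood at 0.22 and 0.10 and Mt-nd1 at 0.21 and 0.12 (edgeR adjusted p = 0.43, 0.89, 0.44 and 0.87), the lone NC animal being assumed to vary like the others. Without NC1, NC2 was the lone NC animal. Mt-nd1, Mt-nd2 and Mt-nd4 then stood at -1.16, -1.60 and -0.69 in fresh libraries. Without NC2, Mt-nd4l, a gene with 396 UMIs in fresh NC1, stood at 0.91 in fresh libraries. With 2 animals per diet, the exact permutation test of the log2 ratio (two-sided) cannot go below 0.33, which was reached by Mt-nd4 (-0.19), Mt-nd5 (-0.08) and Mt-nd6 (0.34). For the other 4 members p was 0.67 to 1.

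The interaction of preservation and diet was called for 0 of 11505 genes (0%) in edgeR, with 739 genes at an unadjusted p under 0.05 and 12 genes called by DESeq2. For the members the estimates were between -0.45 (Mt-nd4l) and 0.11 (Mt-nd6) on the log2 scale, with adjusted p of 0.75 to 0.96. Without NC2, NC1 was the lone NC animal, and the estimate of Mt-nd4l stood at -0.99. In NC1 this gene had 396 UMIs when fresh and 358 after preservation, so that the estimate is imprecise.

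Across 88 profiles of library by class, the genes whose log2 CPM resembled that of the summed members most were ranked among 2165 genes by Pearson's r. Profiles of one library share its depth and animal, so r is a description. Members are part of the sum they are compared with, so that the ranks of the abundant ones follow in part from the construction. In fresh NC1, Mt-nd1 was 129658 of the 237252 UMIs of the members. The members Mt-nd1, Mt-nd2 and Mt-nd4 came first (r = 0.999, 0.986 and 0.970), Mt-nd5 ranked 5 (0.923) and Mt-nd3 7 (0.822). Of the other Mt- genes, Mt-co1 ranked 4 (0.941), Mt-atp6 6 (0.921), Mt-cyb 8 (0.778), Mt-cox3 9 (0.738) and Mt-co2 10 (0.714), whereas Mt-atp8 was below the minimum level. Genes outside the Mt- genes with the next ranks were Rn60_1_2212.4 at 12 (0.679), Rn60_1_2212.2 at 13 (0.678), Leng8 at 14 (0.579) and Flna at 15 (0.560).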

How the data were processed

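The deposited files hold UMI counts per gene and barcode of 8 Chromium 3′ v2 libraries, which the authors made with Cell Ranger 2.1.1 on the rat genome (Rnor6.0, Ensembl 86). The submitters' processing notes also name bcl2fastq 2.17.1.14 and STAR. The counts are not normalized and list all barcodes. The members, lists and comparisons were chosen with earlier results of these data known.

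Cells were barcodes with at least 500 UMIs. UMIs of each gene were summed per library, and a ratio is the log2 of (gene + 0.5) over (the other 12 Mt- genes + 0.5). Free RNA was taken from barcodes with 10 to 100 UMIs. Scrublet (scanpy 1.11.5) called 7 to 66 cells per library by its own threshold, so doublets were kept, and as an alternative the highest scores were left out (0.8% per 1000 cells). Clustering used Seurat 5.3.0 (2000 variable genes without the Mt- genes and those changed at least 2-fold between fresh and DMSO, canonical correlation of the 4 animals, 20 dimensions, resolution 0.4). Clusters needed 3 markers, 2-fold higher and in at least 10% of cells. After looking at the clusters, those with over 20% high doublet scores were left unnamed, and killer receptor genes were counted for NK cells. The classes rest on these rebuilt names.

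Gene tests used edgeR 4.0.16 in R 4.3.3 with TMM and filterByExpr, DESeq2 1.42.0 being an alternative. The SE beside an edgeR log2 change was derived from the test. It is the size of the change over the square root of the F statistic. The animal was the block, except in the fits of diet within fresh or DMSO libraries. It was used because fresh and DMSO libraries come from one animal. The deviations of same-animal libraries correlated at 0.513 to 0.663 (NC1 0.513, NC2 0.629, PC1 0.541, PC2 0.663). On simulated counts with 200 genes changed 4-fold, the fit of DMSO against fresh recovered 95% with 19 false calls among 11332 genes. The fits of diet recovered 77.5% (8 false calls) in fresh and 88.5% (23) in DMSO libraries, and that of the interaction 84% (17). As a share of the genes called in these simulations, false calls exceeded the adjusted p limit of 0.05, except for diet in fresh libraries. Calls near the limit are therefore less certain than their adjusted p states. The fitted changes of the members were smaller than 4-fold, and the recovery of such smaller changes was not measured. Single measures were compared by exact permutation. The other computations used scipy 1.17.1 and pandas 2.3.3 under Python 3.11.15, with numpy 2.4.6. Named genes were the 13 Mt- genes, up to 3 called genes per direction of each nuclear list, and the 5 genes most like the members among those with at least 50 CPM, of which 1 is not reported here. Mt-cox3 is the symbol of the files for the gene listed as Mt-co3. Gene lengths were not used here, so shares are compared between libraries and not between genes. Sequences and coordinates of the members were not used here. Alternatives were other cell selections, doublet removal, means over cells, no pseudocount, the 6 remaining Mt- genes as denominator, subtraction of free RNA, other normalizations and filters, and leaving out each animal.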

Additional observations from a re-analysis of the deposited data

Results flagged for a closer look

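Dixon's criterion was applied to 23 groups of 4 libraries or 4 animal differences, and chance marks about 1 group in 20. The ratios had a part in the choice of the genes, and the ratios of one library and the libraries of one animal depend on each other, so the marks are descriptions and no test. The criterion marked NC2 as far from the other 3 animals for the log2 ratio of Mt-nd1 to the other Mt- genes, at -2.14 in fresh and -2.21 in DMSO libraries. For Mt-nd2 it marked NC2 at -2.92 when fresh and -2.89 after preservation. For Mt-nd4 only the fresh library of NC2 was marked (-5.35), and for Mt-nd6 only the DMSO one (-12.44). The summed complex I share of NC2 was marked in both states, at 34.2% and 33.5% of the Mt- UMIs. Among the differences between DMSO and fresh libraries, that of Mt-nd3 in NC1 was marked, at 0.15 against -0.22 to -0.29 in the other animals. The cause of these differences was not tested.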

How the results depend on the processing

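Of 724 alternative values, 385 of the main and 253 of the single-gene values kept their direction and side of the threshold. Reversed were 7 of the main and 16 of the single-gene values. The others were classed as moved (23 main), weaker (9 main and 3 single-gene) or stronger (13 main and 15 single-gene). Without the replicate block (the animal), 16 genes were called between DMSO and fresh in place of 1044, and a 2-fold minimum left 92. PC against NC called 735 (DESeq2) and 560 (no filter) genes in fresh and 408 (DESeq2) in DMSO libraries, and the interaction 12 (DESeq2) and 47 (no filter). Leaving out 1 animal gave 207 (NC2) to 1318 (NC1) genes for DMSO against fresh, 23 (PC2) to 819 (NC2) for diet in fresh, 4 (PC2) to 465 (NC1) for diet in DMSO libraries, and 5 (PC2) to 239 (NC2) for the interaction. Leaving out 1 animal also turned signs. The log2 ratio of PC minus NC ranged from -1.02 to 0.052 for Mt-nd1, -1.44 to 0.040 for Mt-nd2 and -0.069 to 0.29 for Mt-nd4l (-0.035 with the 6 remaining Mt- genes as denominator), and that of cells minus free RNA from -0.046 to 0.0067 for Mt-nd2. Fitted changes with diet ranged, in fresh libraries, from -1.16 to 0.21 (Mt-nd1), -1.60 to 0.22 (Mt-nd2), -0.50 to 0.91 (Mt-nd4l), -0.69 to 0.14 (Mt-nd4), -0.46 to 0.089 (Mt-nd5) and -0.10 to 0.36 (Mt-nd6). In DMSO libraries they ranged from -1.45 to 0.12 (Mt-nd1), -1.93 to 0.10 (Mt-nd2), -0.22 to 0.0049 (Mt-nd3) and -0.85 to 0.032 (Mt-nd4). Interactions ranged from -0.47 to 0.085 (Mt-nd1), -0.32 to 0.061 (Mt-nd4), -0.30 to 0.10 (Mt-nd5) and -0.19 to 0.40 (Mt-nd6). The cause was not tested.

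Alternatives for NC2 minus the other animals were chosen after seeing the data. With the 6 remaining Mt- genes as denominator the values were 1.16 and 1.23 (Mt-nd1), 1.60 and 1.70 (Mt-nd2) and 0.67 and 0.60 (Mt-nd4), in fresh and DMSO libraries. For Mt-nd4 in fresh libraries they were 0.374 with at least 1000 UMIs, 0.367 under 20% Mt- UMIs and 0.337 as a mean over cells. As a mean over cells, the NC2 share was 34.0% in B-like, 35.6% in Fcgr3a myeloid-like, 33.9% in T-like and 34.7% in cluster 7 cells. It was 35.0% and 33.7% in Fcgr3a myeloid-like and T-like cells at resolution 0.2, and 34.3% in cluster 7 under 20% Mt- UMIs. At 50 Mt- UMIs per cell, as a mean over all 8 libraries, 99.5% of cells held a UMI of Mt-nd1, 93.0% of Mt-nd2, 45.6% of Mt-nd3, 2.23% of Mt-nd4l, 63.3% of Mt-nd4, 22.0% of Mt-nd5 and 1.56% of Mt-nd6. Depth limits mainly Mt-nd4l and Mt-nd6, with 5 to 148 and 5 to 57 UMIs in free RNA.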
